A study of Mus musculus with 8 samples.

Results

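The genes described here were 9 genes of blood coagulation and fibrinolysis, F3, F7, F10, F5, F13a1, Thbd, Plau, Plaur and Serpine2, chosen by name and matched to the 55573 genes of the deposited count table through their Ensembl identifiers. All 9 were found, and 8 of them passed the filter on low counts that left 20153 genes to test. F7 did not pass. RNA was sequenced from microglia, the resident macrophages of the brain, sorted from individual mice at postnatal day 60, with 4 Smad2/3 mutant and 4 control libraries. The mutants were Smad2/3 fl/fl;Cx3cr1 Cre mice, in which both receptor-activated Smads that carry the canonical TGFβ signal are deleted by a Cre recombinase under Cx3cr1, a chemokine receptor gene. Cx3cr1 is active in microglia and also in other tissue macrophages and in monocytes, so the deletion is not particular to microglia. The series names the controls as wild-type littermates, whereas the methods of the study state that its breeding gave no mice free of transgenes and floxed alleles and that controls usually carried the Cre with 1 floxed allele, so which alleles these 4 controls carried is uncertain. The study names another deposit for its Smad2/3 microglia, and it was inferred from cell type, gene and age that the present libraries belong to it. For that experiment, the methods describe a Percoll gradient and a sort on CD45, CD11b and a tdTomato reporter. The comparison asks how the RNA of these sorted cells differs when Smad2 and Smad3 are deleted. RNA of sex-linked genes divided the libraries in the same way, as given below, so genotype and sex cannot be told apart. Replicate numbers in the text are those of the sample labels.

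Coagulation begins when tissue factor, encoded by F3, meets factor VII in the blood, and the pair activates factor X. Factor Xa with its cofactor factor V turns prothrombin into thrombin, thrombin cuts fibrinogen into fibrin, and factor XIII crosslinks the fibrin. Thrombomodulin, encoded by Thbd, holds thrombin and redirects it to activate the anticoagulant protein C. Fibrin is dissolved by plasmin, which urokinase (Plau), bound to its receptor (Plaur), cuts from plasminogen, and protease nexin-1 (Serpine2) is a serpin that inhibits thrombin and urokinase. Macrophages make several of these proteins outside the blood, where tissue factor is also abundant in astrocytes and thrombomodulin in endothelial cells.

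Of the 8 tested genes, Thbd rose in the mutants, Serpine2 fell and the other 6 did not pass the test. Thbd was 4.12-fold higher in mutant than in control microglia, and Serpine2 was 11.6-fold lower. These counts of 1 higher and 1 lower stand beside 4.36% of all tested genes called higher and 7.97% called lower by edgeR at an adjusted p under 0.05. DESeq2, which called 20.7% of its tested genes, called the same 2 of the 9. Both called genes had no overlap between the 4 control and the 4 mutant libraries in CPM (counts scaled by library size, with TMM between libraries), as had 2 of the 8 tested members, or 25%, against 22.1% of all tested genes. The median log2 fold change of the 8 was 0.46, and that of all tested genes was 0.01.

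**Figure D1:**
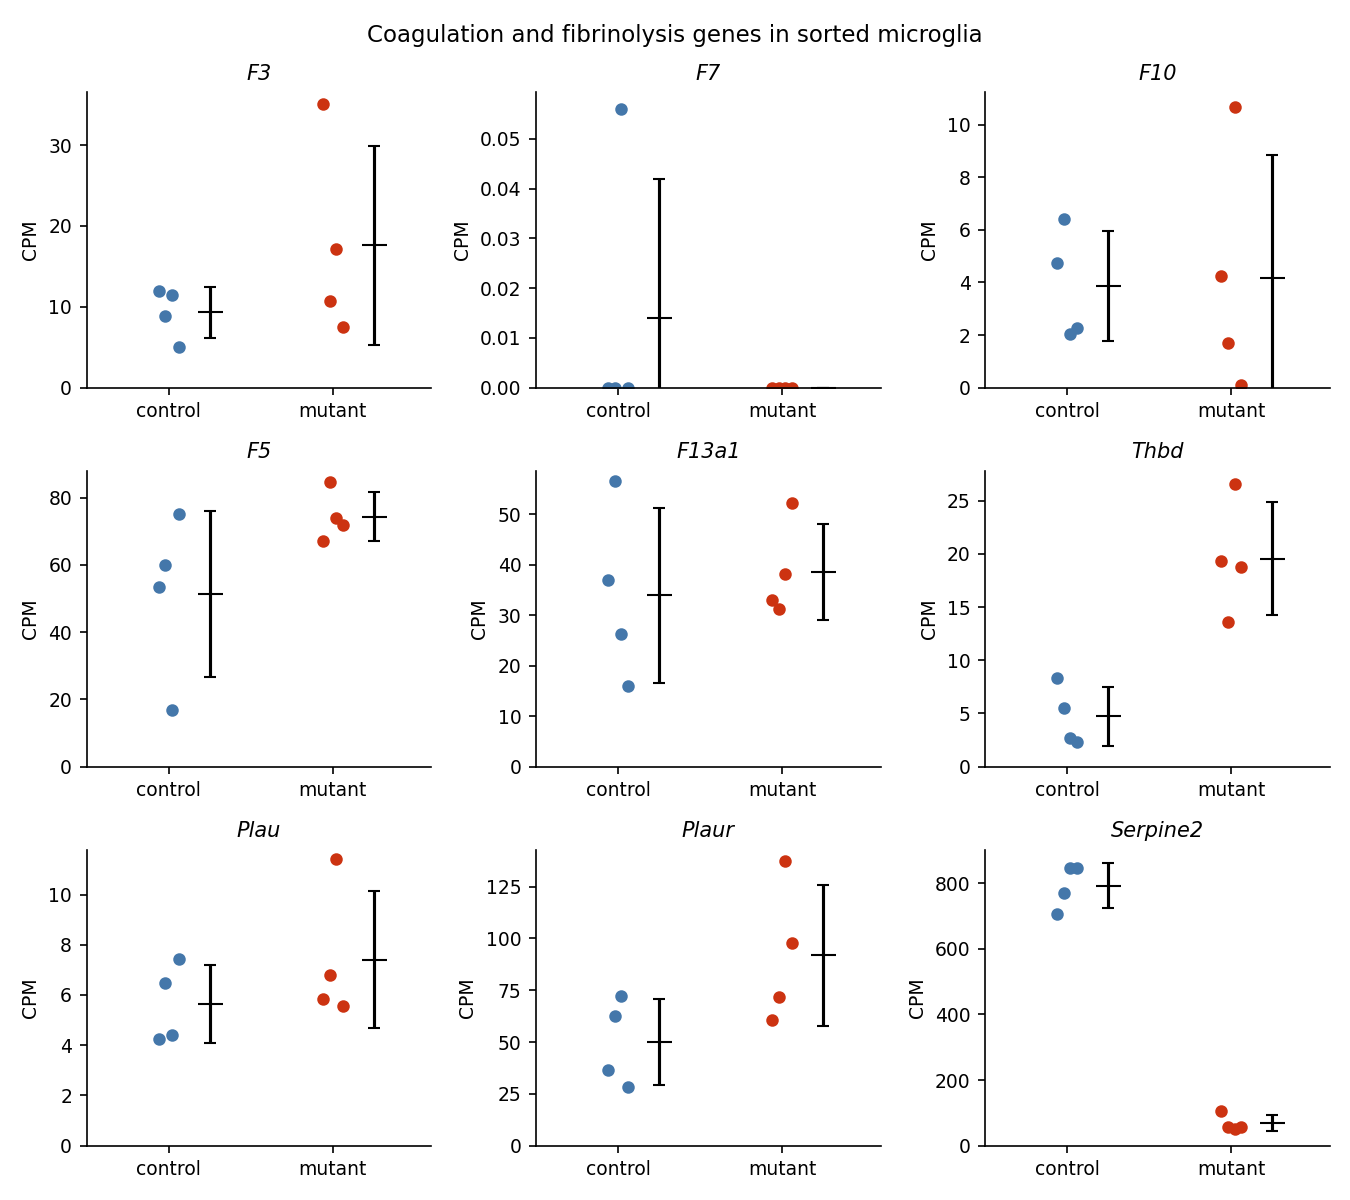
CPM of the 9 coagulation and fibrinolysis genes in each library (points; 4 control, 4 mutant), with the group mean and SD beside the points; bars that reach below 0 are drawn to 0 and each panel has its own scale. Thbd and Serpine2 are the panels in which no control point lies within the range of the mutant points and the reverse, and the F7 panel holds 1 point above 0.

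The sequences before the start sites of 3 genes that fell are shown because Serpine2 gave the clearest change among the 9 genes, and Procr and Pros1 are the protein C pathway partners of Thbd described further on. Each line is a RefSeq window on GRCm38.p6 that runs 5′ to 3′ from 250 bases before to 50 bases after the start of transcription. Serpine2 is read from chr1:79858616-79858915 on the minus strand, which lies inside the longer gene span of the annotation. Procr is read from chr2:155750967-155751266 and Pros1 from chr16:62854057-62854356, both on the plus strand. Capitals mark CAGAC, or GTCTG on the other strand, the short box that Smad3 is known to bind.
Serpine2: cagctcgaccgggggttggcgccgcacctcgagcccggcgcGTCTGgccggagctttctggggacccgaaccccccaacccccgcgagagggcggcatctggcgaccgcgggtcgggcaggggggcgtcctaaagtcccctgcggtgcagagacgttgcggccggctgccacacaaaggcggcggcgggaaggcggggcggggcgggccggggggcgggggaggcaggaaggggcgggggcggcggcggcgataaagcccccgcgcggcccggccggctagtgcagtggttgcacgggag
Procr: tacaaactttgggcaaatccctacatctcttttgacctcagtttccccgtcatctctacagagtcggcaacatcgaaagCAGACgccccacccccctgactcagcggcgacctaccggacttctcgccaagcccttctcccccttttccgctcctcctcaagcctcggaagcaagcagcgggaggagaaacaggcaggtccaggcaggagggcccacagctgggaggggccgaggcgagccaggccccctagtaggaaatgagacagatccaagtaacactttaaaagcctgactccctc
Pros1: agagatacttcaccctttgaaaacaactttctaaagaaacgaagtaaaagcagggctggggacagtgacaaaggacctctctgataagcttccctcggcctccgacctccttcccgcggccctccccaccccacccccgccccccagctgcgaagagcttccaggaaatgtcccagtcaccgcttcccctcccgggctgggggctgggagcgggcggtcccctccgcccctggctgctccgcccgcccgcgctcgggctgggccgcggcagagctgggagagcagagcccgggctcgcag
The Serpine2 window held 1 such box, 209 bases upstream of the start, the Procr window held 1, 171 bases upstream, and the Pros1 window held none. A box of this length was present in 49.6% of the 32851 promoter windows of the same length, and in 4 of the 8 windows of the 7 members that the table lists, so its presence is common and is given as a description. The longer palindrome GTCTAGAC, another sequence that Smad3 is known to bind and which does not contain the box, was present in 0.213% of all windows and in none of those 8. Thbd and Plau have no entry in the promoter table.

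The targeted genes and the sort were checked in each library. Smad3 was at 39.4 to 56.8 CPM in controls and 9.60 to 35.1 CPM in mutants, a log2 fold change of -1.33 (SE 0.36, adjusted p = 0.043), whereas Smad2 had a log2 fold change of -0.34 (adjusted p = 0.34), and where the deleted exons lie was not used here. Xist was at 99.3 to 183 CPM in the control libraries and at most 0.561 CPM in the mutants, and the Y-linked Ddx3y at 0.0269 to 0.224 CPM and 9.73 to 59.7 CPM. Genotype and sex, as read from these genes, therefore cannot be told apart in any result here. This holds for the 9 members too, although all are autosomal. Of the 8 microglial markers, such as P2ry12 and Tmem119, 7 were lower in mutants and their summed level fell from 29582 to 44719 CPM in controls to 5673 to 7942 CPM, while 5 of 6 markers of border-associated macrophages were higher, with a sum of 29.5 to 42.5 CPM in controls and 1597 to 2482 CPM in mutants. In bulk RNA, fewer cells of a type and less RNA per cell cannot be told apart. Markers of astrocytes, oligodendrocytes and neurons summed to 6497 CPM in control 1 and 4613 CPM in mutant 1, each the highest of its group. Lymphocyte markers summed to 19.5 to 49.96 CPM in controls and 57.5 to 118 CPM in mutants, with Cd3e and Nkg7 called higher, the neutrophil gene Camp was called lower, and erythroid markers stood at 10825 CPM in mutant 4, the highest of all libraries.

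F3, the gene of tissue factor (chromosome 3, 121723537 to 121735048, plus strand), was present in every library. The controls held 11.96, 8.89, 11.5 and 5.08 CPM, and the mutants 35.1, 10.7, 17.2 and 7.5 CPM. Mutant 1 stood well above the rest, and the groups overlapped. The log2 fold change was 0.91 (SE 0.49, 95% interval -0.18 to 2.01, adjusted p = 0.25) and fell to 0.34 without mutant 1. That library also held the most neural marker RNA of its group, and the part of such RNA in the F3 level was not tested. F7, the gene of the protease that tissue factor binds (chromosome 8, 13026034 to 13035809, plus strand), had 2 counts in control 3 and 0 counts in the other 7 libraries. A count of 0 allows up to 3 counts, or 0.0647 to 0.0838 CPM according to the library, and no difference in F7 was detectable at this depth.

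F10 encodes factor X and lies next to F7 (chromosome 8, 13037308 to 13056676, plus strand). The controls held 4.73, 6.42, 2.04 and 2.26 CPM and the mutants 4.23, 1.70, 10.7 and 0.110 CPM. Mutant 3 was the highest of all 8 libraries and mutant 4 the lowest, with 384 and 4 counts. The highest mutant was 96.9 times the lowest, against 3.15 times among controls, and the log2 fold change of 0.11 had a 95% interval from -2.08 to 2.30 (SE 0.97, adjusted p = 0.96), so changes of either sign lie within its error. In mutant 4 the summed level of 4 large peritoneal macrophage markers was 0.110 CPM, all of it Icam2. The sum was 3.32, 5.87 and 5.34 CPM in mutants 1 to 3 and 4.78, 4.14, 5.34 and 4.24 CPM in controls. It did not follow F10 elsewhere. Control 3 had the highest sum of the controls and the lowest F10, and mutant 2 had the highest sum of all with F10 at 1.70 CPM. Icam2 was its largest part in every library, and Gata6 had too few counts to test. Whether such cells were present, and their part in the F10 level, was not tested. The within-library log2 ratio of F10 to F7 counts differed by -0.57 between groups (exact permutation p = 0.743, adjusted p = 0.743 over 4 ratios) and speaks only of F10, since F7 was at or below the limit of detection throughout.

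F5 encodes factor V, the cofactor that speeds factor Xa (chromosome 1, 164151838 to 164220277, plus strand). Its level was 53.4, 59.97, 16.9 and 75.0 CPM in the controls and 67.0, 84.5, 73.8 and 72.0 CPM in the mutants. The mutants lay close together, with a coefficient of variation of 9.92%, and control 3 was the 1 library far below the others, so that the controls varied by 48.1%. The log2 fold change was 0.53 (SE 0.37, 95% interval -0.31 to 1.38, adjusted p = 0.39), and 0.24 without control 3. Exons of F5 overlap the antisense gene Gm16548, at a mean of 0.216 CPM in controls and 0.502 CPM in mutants, and the libraries do not keep strand, so reads of the pair cannot be separated.

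F13a1 encodes the A subunit of factor XIII, the transglutaminase that crosslinks fibrin (chromosome 13, 36867178 to 37050244, minus strand). Control microglia held 37.1, 56.5, 26.3 and 16.01 CPM, and mutant microglia 33.0, 31.3, 38.1 and 52.2 CPM. The 4 mutant values lay inside the range of the controls. The fitted log2 fold change was 0.19 (SE 0.36, 95% interval -0.62 to 0.99, adjusted p = 0.79), so rises or falls to about those bounds are within the error. F13a1 is known in macrophages, monocytes and platelets. The 5 monocyte markers summed to 295, 451, 194 and 213 CPM in controls and 128, 194, 286 and 266 CPM in mutants, with 0 of 5 called, and control 2 was the highest library for both F13a1 and these markers. The 7 platelet markers summed to 36.6 to 84.4 CPM in controls and 5.65 to 13.3 CPM in mutants. Gp9 made up most of the control sum and was called lower, at 32.9 to 80.4 CPM in controls and 0 to 3.95 CPM in mutants. Itga2b was at 2.33 to 10.4 CPM in all 8 libraries, and it, Gp1ba and Ppbp were not called, while Gp1bb, Gp5 and Gp6 had too few counts to test. The part of either cell type in F13a1 was not tested. Over the 8 libraries, the 5 genes whose log2 CPM pattern lay closest to that of F13a1, of 10341 compared, were Rars2 (root mean square difference 0.25), Ncoa1 (0.28), Ube2e2 (0.29), Rufy3 (0.30) and Gstm4 (0.31), and none of them passed the test between groups.

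Thbd, the gene of the anticoagulant receptor thrombomodulin, is a single-exon gene on chromosome 2 (148404466 to 148408188, minus strand). The controls held 8.34, 5.54, 2.74 and 2.34 CPM. The mutants held 19.3, 13.6, 26.6 and 18.8 CPM. Every mutant library was above every control, with controls 3 and 4 the lowest and mutant 3 the highest. The means were 4.74 ± 2.79 CPM in controls and 19.6 ± 5.33 CPM in mutants (SD, n = 4 each), which gave a log2 fold change of 2.04 (SE 0.43, 95% interval 1.06 to 3.02; edgeR adjusted p = 0.016). Thrombomodulin is abundant on endothelium. The 6 endothelial markers summed to 9.84 to 15.1 CPM in controls and 2.37 to 9.55 CPM in mutants, and 0 of the 3 that could be tested were called. Pecam1 was at 5.11 to 13.3 CPM in controls and 0.604 to 5.01 CPM in mutants (log2 fold change -1.97, adjusted p = 0.066), Cdh5 and Flt1 were at up to 1.64 and 3.81 CPM, and Cldn5, Tek and Emcn had too few counts to test. Of the markers of border-associated macrophages, 5 of 6 were higher in the mutants, as given above. The part of either cell type in the Thbd level was not tested.

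The genes on either side of Thbd were read as well, 2 to a side. Cd93, which encodes a C-type lectin-like receptor of myeloid and endothelial cells, lies 28.5 kb from Thbd on the same strand. Its controls were at 1.57 ± 0.884 CPM and its mutants at 58.7 ± 12.2 CPM (SD, n = 4 each), and the fitted log2 fold change was 5.22 (SE 0.42, edgeR adjusted p = 1.09e-04). Nxt1, the next gene beyond Cd93, had a log2 fold change of 0.11 (adjusted p = 0.788). On the other side Sstr4 and Foxa2 had too few counts to test.

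F3 and Thbd, which start and restrain the cascade, were compared as a ratio within each library, a measure that needs no scaling between libraries. The log2 ratio of F3 to Thbd counts was 0.52, 0.68, 2.04 and 1.10 in controls and 0.86, -0.35, -0.63 and -1.32 in mutants. F3 counts exceeded Thbd counts in 4 of 4 controls and in 1 of 4 mutants, mutant 1. The difference in means was -1.44, and the groups overlapped through that library (two-sided exact permutation p = 0.0857, adjusted p = 0.171 over the 4 ratios). The smallest p that 4 against 4 libraries allow is 0.0286, and over 4 ratios a single ratio at that p has an adjusted p of 0.114, so no ratio alone could pass.

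**Figure D2:**
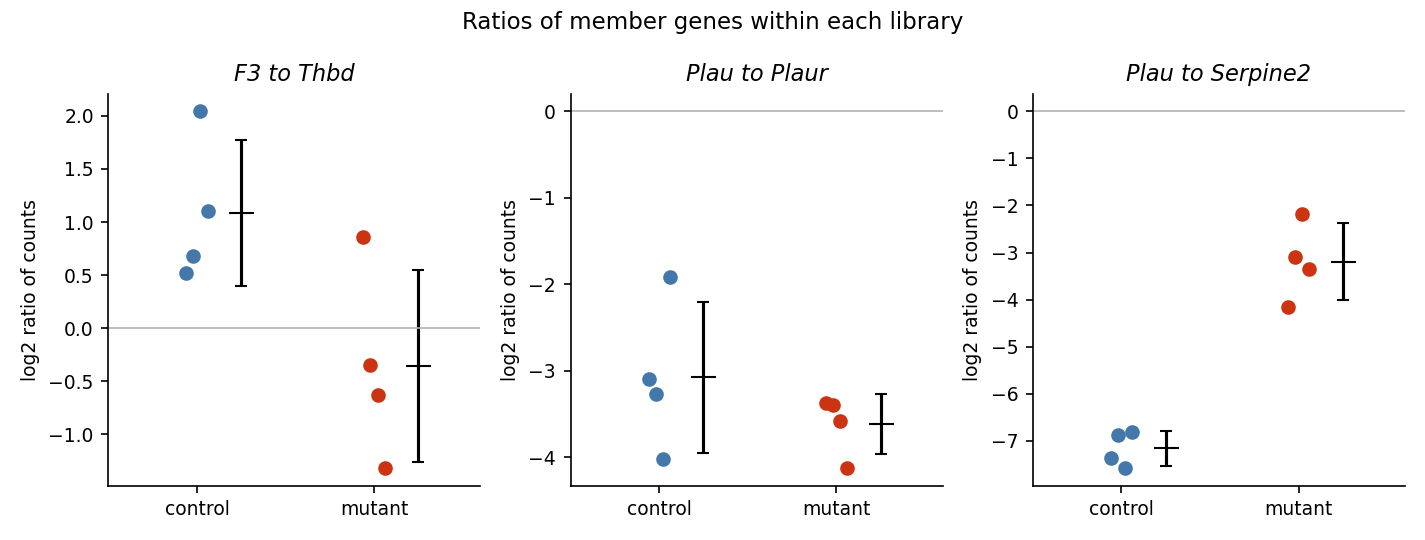
Log2 ratio of the counts of 3 gene pairs within each library (points; 4 control, 4 mutant), with the group mean and SD beside the points; a ratio of 0 means equal counts. The Plau to Serpine2 ratios lie between -7.57 and -6.82 in controls and between -4.16 and -2.18 in mutants, without overlap, whereas the other ratios overlap between groups. That separation largely restates the fall of Serpine2, since Plau was not called.

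Plau, the gene of urokinase, the protease that cuts plasminogen (chromosome 14, 20836660 to 20843385, plus strand), was at 4.26, 6.48, 4.39 and 7.44 CPM in controls and 5.84, 6.80, 11.4 and 5.57 CPM in mutants. The groups overlapped, with mutant 3 highest. Its log2 fold change was 0.39 (SE 0.34, 95% interval -0.37 to 1.15, adjusted p = 0.49). Plaur encodes the receptor that holds urokinase on the cell surface (chromosome 7, 24462484 to 24475968, plus strand). Its controls were at 36.7, 62.8, 72.0 and 28.3 CPM and its mutants at 60.8, 71.7, 137 and 97.9 CPM. Mutants 3 and 4 were above every control, while mutants 1 and 2 lay within the control range. The log2 fold change of Plaur was 0.88 (SE 0.35, 95% interval 0.08 to 1.68), with an unadjusted p of 0.034 and an adjusted p of 0.14, so it did not pass the test across all genes. The log2 ratio of Plau to Plaur counts differed by -0.54 between groups (exact permutation p = 0.314, adjusted p = 0.419 over 4 ratios).

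Serpine2, the gene of protease nexin-1 (chromosome 1, 79794197 to 79861180, minus strand), had the highest level per kb of exon of the 9 in control microglia. The 4 controls held 707, 772, 847 and 847 CPM. The 4 mutants held 105, 58.1, 52.0 and 57.3 CPM. The controls differed among themselves by a coefficient of variation of 8.51%, and even the highest mutant, mutant 1, was far below the lowest control. The means were 793 ± 67.5 CPM and 68.2 ± 24.99 CPM (SD, n = 4 each), and the log2 fold change was -3.54 (SE 0.26, 95% interval -4.12 to -2.95; edgeR adjusted p = 8.4e-05). Serpine2 is also made by astrocytes. The 6 astrocyte markers summed to 1423 to 2425 CPM in controls and 340 to 1256 CPM in mutants. Slc1a3 was the largest part of that sum in every control. It alone was called lower, at 1083 to 1756 CPM in controls and 25.8 to 170 CPM in mutants. The others were not called, with log2 fold changes from -0.33 (Gja1) to 0.73 (Aqp4). Aqp4 was at 6.99 to 31.7 CPM in controls and 15.3 to 47.1 CPM in mutants. Mutant 1 was the highest of the mutants for Serpine2, Aqp4 and the neural markers together. Among the controls, control 1 was the highest for Aqp4 and the neural markers but the lowest for Serpine2. The part of those cells in the Serpine2 level was not tested.

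Of the 4 nearest neighbours of Serpine2, 1 was called. Wdfy1, a gene of a WD-repeat and FYVE-domain protein 18.1 kb away, had a mean of 61.1 ± 4.41 CPM in controls and of 14.8 ± 7.71 CPM in the mutant libraries (SD, 4 each), with a log2 fold change of -2.05 (SE 0.34, edgeR adjusted p = 0.00519). Mrpl44, which lies between Wdfy1 and Serpine2, had a log2 fold change of 0.26 (adjusted p = 0.468). Its annotated span overlaps the start of Wdfy1 on the other strand. Cul3, on the other side, had a log2 fold change of -0.36 (adjusted p = 0.138), and Fam124b had too few counts to test.

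Urokinase and its inhibitor were also compared within each library. The log2 ratio of Plau to Serpine2 counts was -7.16 ± 0.37 in controls and -3.20 ± 0.82 in mutants (SD, n = 4 each). The difference of 3.96 had no overlap between the groups and an exact permutation p of 0.0286, the smallest possible, with an adjusted p of 0.114 over 4 ratios. Plau itself was not called, so this ratio largely restates the fall of Serpine2 and is not a separate result. Serpine2 counts exceeded Plau counts in all 8 libraries.

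Ranked by CPM per kb of exon, so that genes of different length can be set side by side, the order of levels differed between the groups. In controls the mean level was 95.7 CPM per kb for Serpine2, 19.1 for Plaur, 6.90 for F5, 5.04 for F13a1, 3.70 for F3, 2.38 for Plau, 1.41 for F10, 1.27 for Thbd and 0.00752 for F7. The ranges of neighbours in that order overlapped except for Serpine2 over Plaur, Plaur over F5 and Thbd over F7. In mutants the mean level was 35.1 CPM per kb for Plaur, 10.004 for F5, 8.23 for Serpine2, 6.97 for F3, 5.73 for F13a1, 5.25 for Thbd, 3.13 for Plau, 1.53 for F10 and 0 for F7, and only Plaur over F5 and F10 over F7 did not overlap. Serpine2 was thus first in controls and stood in mutants between F5 and F3, and from F5 down to F10 no gene there was separated from the next by its range.

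The other genes of these pathways came from a list of 46, of which 26 could be tested. Of the 26, 1 was called higher (3.85%) and 6 lower (23.1%), beside the 4.36% and 7.97% of all tested genes. Groups did not overlap for 9 of the 26 (34.6%, against 22.1% of all tested genes), and their median log2 fold change was -0.37. The 20 that could not be tested included 9 with 0 counts in every library, which allows up to 3 counts a library, and among those, named after their values were seen, were the fibrinogen chain genes Fga, Fgb and Fgg and the plasminogen gene Plg.

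**Figure D3:**
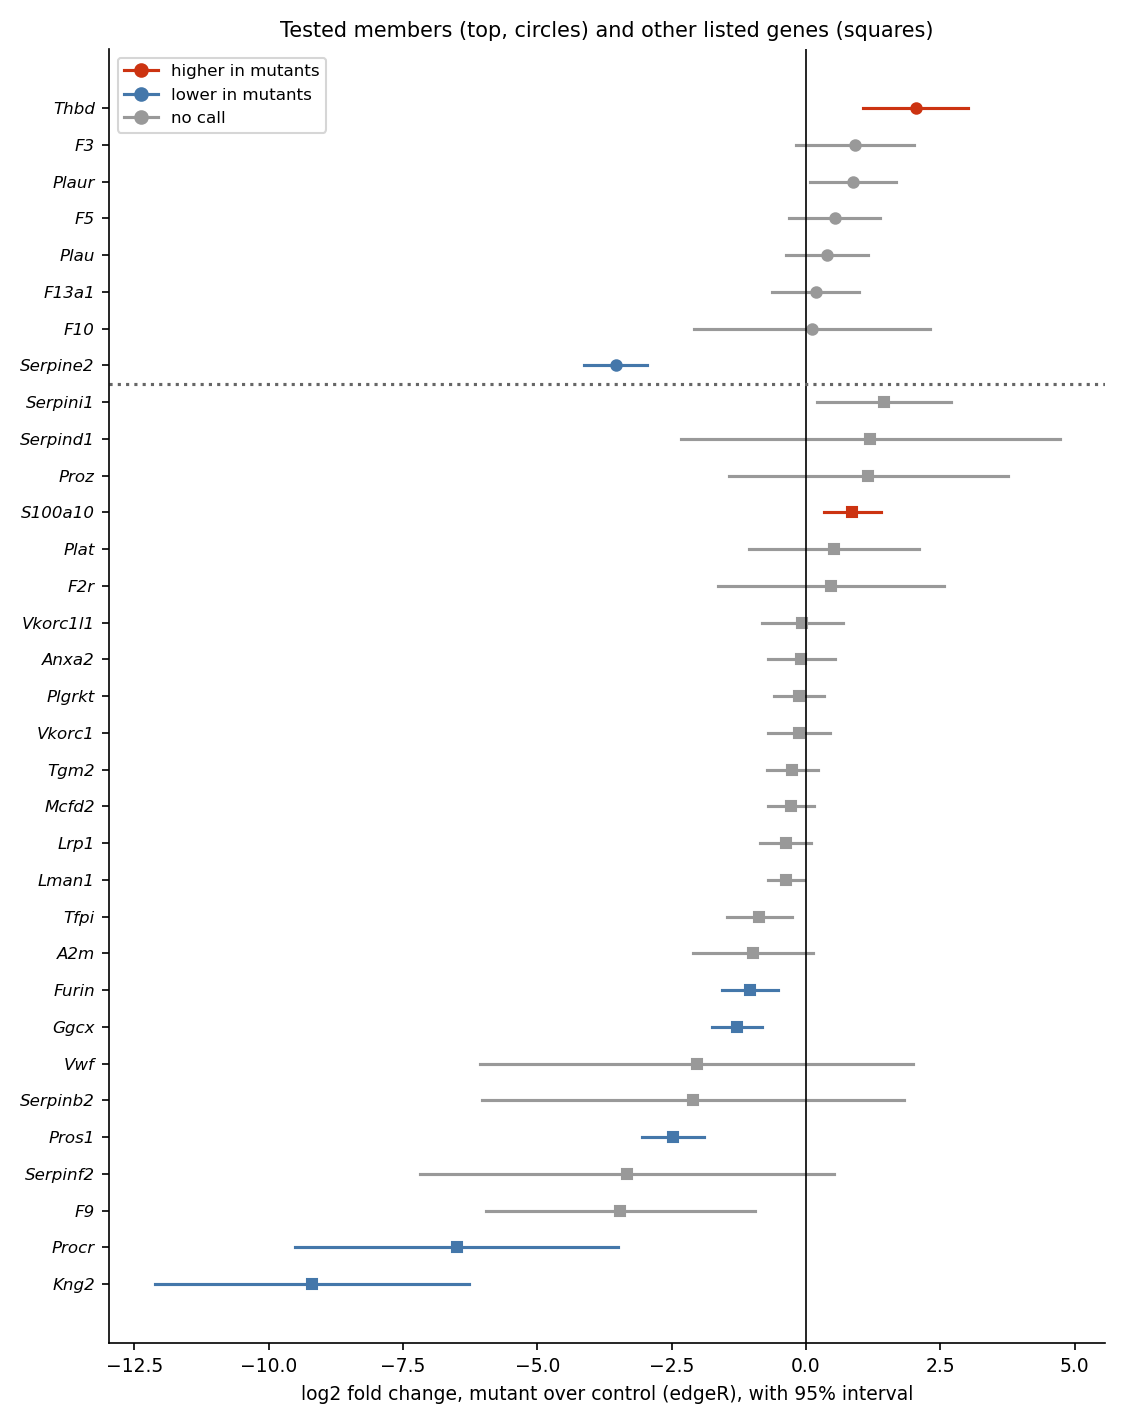
Log2 fold change, mutant over control, with its 95% interval from edgeR for the 8 tested members (circles, above the dotted line) and the other tested pathway genes reported here (squares); red marks genes called higher, blue genes called lower and grey genes with no call. Thbd at 2.04 and Serpine2 at -3.54 are the called members, and the value drawn for Kng2, which had 0 counts in the mutants, depends on the prior count.

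Of the 4 tested anticoagulants other than Thbd, 2 fell, Procr and Pros1, beside the 7.97% of all tested genes called lower. Procr encodes the endothelial protein C receptor, which presents protein C to thrombin on thrombomodulin. Its controls held 22.1, 28.3, 2.10 and 39.1 CPM and its mutants 0.0519, 0.863, 0 and 0.0276 CPM. Control 3 was the lowest control and still above every mutant. The log2 fold change of Procr was -6.50 (SE 1.33, adjusted p = 0.014), and -6.16 with an adjusted p of 0.0545 when control 1 and mutant 1, the libraries richest in neural markers, were left out. Vascular markers did not move together. The summed endothelial markers were lower in the mutants, as given above, with 0 of 3 tested genes called. Flt1 among them had a log2 fold change of 1.46. Of the 5 mural markers, Pdgfrb alone was called, lower, at 1.47 to 16.4 CPM in controls and 0.0276 to 1.19 CPM in mutants. Without a call, Rgs5 had a log2 fold change of -2.67, Cspg4 of 0.73 and Acta2 of 0.86, and Kcnj8 had too few counts to test. The mural sums overlapped between the groups. The part of vascular cells in the Procr level was not tested. Pros1 encodes protein S, the vitamin K-dependent cofactor of activated protein C and a ligand of the TAM receptors. Its controls held 194, 249, 283 and 192 CPM and its mutants 46.3, 25.4, 52.9 and 40.7 CPM, again without overlap, with a log2 fold change of -2.47 (SE 0.25, adjusted p = 4.1e-04). Thbd was higher in the same libraries in which these 2 genes were lower. Proc, the gene of protein C itself, had too few counts to test, with a mean of 0.161 CPM in controls and 0 counts in mutants.

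In plasminogen activation, S100a10 encodes the annexin A2 partner that binds plasminogen at the cell surface. It was at 28.0, 29.0, 15.9 and 29.1 CPM in controls and 37.4, 44.2, 57.5 and 46.7 CPM in mutants, so every mutant was above every control. The log2 fold change was 0.87 (SE 0.23, adjusted p = 0.042), but the call was lost when any library other than mutant 1 was left out, with adjusted p-values from 0.0402 (without mutant 1) to 0.0939 (without mutant 3). Anxa2, the gene of annexin A2 itself, had a log2 fold change of -0.09 (adjusted p = 0.87). Lrp1, the endocytic receptor that clears protease and serpin complexes, had a log2 fold change of -0.37 (adjusted p = 0.28).

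Of 6 genes of the vitamin K cycle and of clotting factor secretion, 2 fell (33.3%, beside 7.97% of all tested genes), 1 of them, Furin, with a call that rested on single libraries. Ggcx, the carboxylase that vitamin K-dependent proteins such as factor X and protein S need, was at 31.1, 38.2, 36.0 and 33.3 CPM in controls and 11.5, 11.1, 18.1 and 16.4 CPM in mutants. The groups lay well apart, with a log2 fold change of -1.28 (SE 0.21, adjusted p = 0.0043). Furin, the gene of a protease that cuts the propeptides of secreted proteins, was at 52.4, 95.7, 88.1 and 92.2 CPM in controls and 46.8, 31.8, 46.2 and 34.4 CPM in mutants. Control 1 was close to the highest mutants, and the log2 fold change was -1.05 (SE 0.23, adjusted p = 0.019). The Furin call was lost without control 2, control 3, mutant 2 or mutant 4, with adjusted p-values from 0.0516 to 0.0590, and its exons overlap the antisense gene Gm44851. Lman1 and Mcfd2, the cargo receptor that carries factor V out of the endoplasmic reticulum, had log2 fold changes of -0.38 (adjusted p = 0.14) and -0.27 (adjusted p = 0.39).

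In the intrinsic pathway, Kng2, a kininogen gene, had 3.05, 1.04, 2.96 and 0.591 CPM in controls and 0 counts in all 4 mutants. Taken against 3 counts in each mutant library it was at least 24.7-fold lower (adjusted p = 0.0058). Kng2 shares 19.4% of its 50-base words with Kng1, so reads could be split between them. Tgm2, a tissue transglutaminase related to factor XIII, had a log2 fold change of -0.25 (adjusted p = 0.49). Tfpi, the inhibitor of the tissue factor and factor VII complex, and the X-linked F9, the gene of factor IX, are named after their values were seen, since their groups did not overlap but neither was called. Their log2 fold changes were -0.87 (adjusted p = 0.066) and -3.45 (adjusted p = 0.076).

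**Figure D4:**
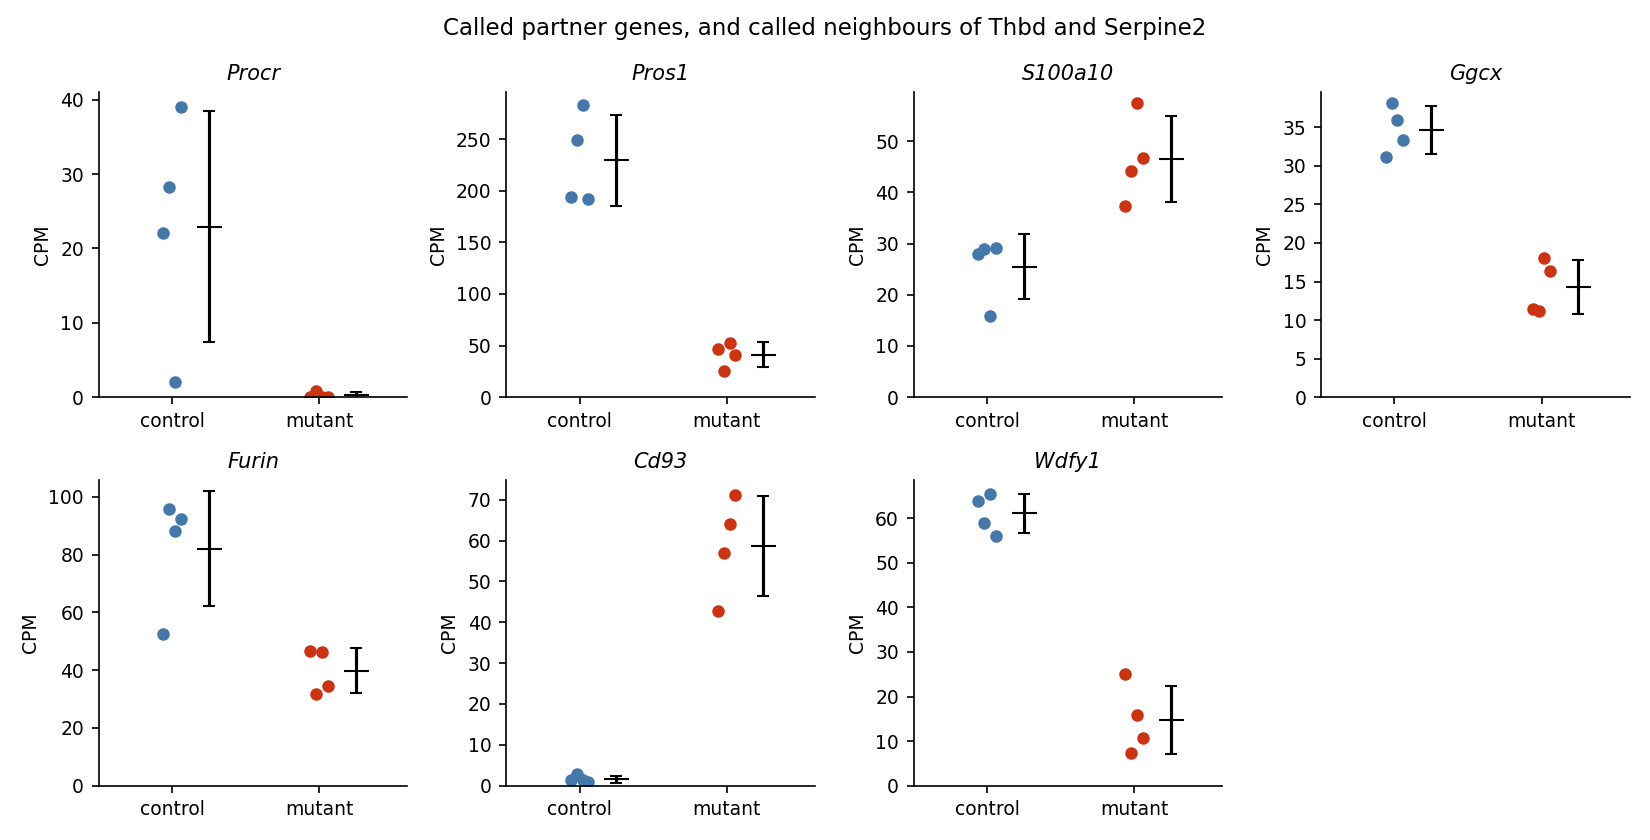
CPM in each library (points; 4 control, 4 mutant), with group mean and SD beside the points, of 5 called pathway genes other than Kng2 and of Cd93 and Wdfy1, the called neighbours of Thbd and Serpine2; bars that reach below 0 are drawn to 0. Cd93 and S100a10 lie higher in mutants and the other 5 genes lower, each without overlap between groups.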

How the data were processed

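The deposited table held raw read counts per gene in 8 libraries, 1 per mouse. The authors made these counts with featureCounts on mm10, per their processing notes, which also name DESeq2 1.28. The authors aligned reads with Rsubread, per the methods, and the annotation and counting settings are not given in the sources used here. The labels name an unstranded single-end library, whereas the methods name another kit. A deposited table of the authors' own comparison holds fold changes and p-values and was not used. Unmapped columns numbered 0.

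Library totals ran from 35639502 to 41946479 counts. In R 4.3.3, edgeR 4.0.16 kept genes that reached 10 counts in 4 or more of the 8 libraries, scaled by TMM, and compared the groups with glmQLFit and glmQLFTest, with Benjamini-Hochberg adjustment over all 20153 genes and a threshold of 0.05. The script was tested on simulated data first. Of 200 genes changed by 2 on the log2 scale, among 19348, edgeR recovered 45.5% and DESeq2 70.0%. False calls made up 2.15% of the edgeR calls and 34.3% of the DESeq2 calls there. A change of that size could thus be missed by edgeR. Biological variation (coefficient 0.542) limited the precision of well expressed genes more than counting noise did. The edgeR p-values set the difference between the groups against the spread between these mice. Floors of 3 counts cover counting error only, since PCR reads that carry no molecular identifier need not be separate molecules. DESeq2 1.42.0, other scalings, other filters, a replicate block and leaving out each library were alternatives. Ratios were log2((count + 2)/(count + 2)) per library, compared by two-sided exact permutation. Coordinates and exon lengths are those of GENCODE M21 on GRCm38, which matched 55394 genes.

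The members, pathway list and markers were chosen with earlier results of these data known. The named genes are all 9 members, each listed pathway gene called except 1 that enters the counts but is not reported here singly, the 5 most abundant tested ones not called, 2 neighbours on each side of the called members, and the 5 genes most like F13a1. Markers and genes at 0 are named where a result turns on them.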

Additional observations from a re-analysis of the deposited data

Results flagged for a closer look

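A gap test (Dixon's) was applied to 38 groups of 4 CPM values of the described genes, and 4 groups had 1 library standing apart from the other 3. Chance sets apart about 1 group in 20 where values vary normally, which groups near 0 need not do. For F7, control 3 was at 0.0559 CPM, from 2 counts, and the other controls at 0. Any count at all in control 3 would have been flagged there. For Serpine2, mutant 1 was at 105 CPM and the other mutants between 52.0 and 58.1 CPM. For Procr, mutant 2 was at 0.863 CPM and the other mutants between 0 and 0.0519 CPM. For S100a10, control 3 was at 15.9 CPM and the other controls between 28.0 and 29.1 CPM.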

How the results depend on the processing

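Thbd and Serpine2 were called in the same direction in all 15 alternatives, with log2 fold changes between 1.85 and 2.48 and between -3.87 and -3.41, and no other member was called in any. DESeq2 called 4751 genes (2089 higher, 2662 lower; 20.7% of 22931), against 2485 (878 and 1607) with edgeR, and the cause was not tested. Leaving out 1 library in turn gave 1567 to 2499 calls, 525 to 1024 higher and 1005 to 1587 lower, with the fewest called without control 3 (1567) and control 2 (1572) and 573 higher without mutant 2. Library totals without TMM moved the median log2 fold change of all genes by 0.12 and the share of calls that were higher from 35.3% to 44.1%; without the filter 2058 genes were called. The F10 fold change ran from -0.94 to 0.52 with 1 library left out, turning to -0.10, -0.04 and -0.94 without control 3, control 4 and mutant 3, and to -0.92 with the replicate block, and that of F13a1 ran from -0.0023 (without control 4) to 0.55. When 1 library was left out, the F3 to Thbd difference ran from -1.85 to -1.12 (exact permutation p = 0.0286, unadjusted, without mutant 1), Plau to Plaur from -0.86 to -0.16 (0.0286 without control 3), F10 to F7 from -1.36 to 0.65 (0.65 without mutant 4) and Plau to Serpine2 from 3.63 to 4.29. With the replicate block 2383 genes were called, 2001 of them shared with the fit without it, Thbd had a log2 fold change of 2.18 and Serpine2 of -3.60, S100a10 (adjusted p = 0.0888) and Furin (0.0576) lost their calls, and a sign-flip test of the Plau to Serpine2 difference of 3.96 gave p = 0.125, the smallest that 4 pairs allow; the deviations of same-numbered libraries correlated by 0.166, 0.0183, 0.144 and 0.114, rank 1 of 24 pairings, with 6 of 8 libraries closest to their own number, but 1 pair was under 0.1 and the numbers were not taken to pair mice. S100a10 also lost its call without the filter (0.0610). An alternative chosen after seeing the data left out control 1 and mutant 1; it ended the calls of Procr (0.0545) and S100a10 (0.0607). Having 4 mice a group limits what can be seen: members with no call had 95% intervals that reach changes of 0.99 to 2.30 on the log2 scale.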
